A study of Homo sapiens with 3 samples.

Results

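Cycling sensitive cells, those called in S or in G2M phase, were compared between coculture with resistant cells and monoculture. They were chosen from the deposited cell annotation by population and phase, and the phase had been called by the authors from scores over known S and G2M genes. Of 19237 annotated cells in the series, 1287 met this rule. In monoculture 176 were in S and 190 in G2M, and in coculture 458 were in S and 463 in G2M, out of 3329 and 2059 sensitive cells. S cells were compared with S cells and G2M cells with G2M cells, so that the called phase was alike on both sides of a ratio. Cells within a called phase still differed between conditions in score and cluster, as given below. CAMA-1 is an established estrogen receptor-positive line of breast cancer cells. Its parental, drug-sensitive lineage carried mVenus from a lentivirus, and a ribociclib-resistant lineage, derived by long culture with the drug, carried mCherry. Spheroids of 2000 cells held 100% sensitive, 50% sensitive and 50% resistant, or 100% resistant cells at the start, and all 3 were given 1 µM ribociclib for 11 days. No untreated sample was analysed here, so every value below is from cells under the drug. Each condition was 1 library of droplet-based single-cell RNA, and both lineages are single cultured lines. Condition and library therefore cannot be told apart, there is no replicate check and no p-value, cells are not replicates, and every interval below is a 95% interval for counting error only.

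Ribociclib inhibits the kinases CDK4 and CDK6, which with D-type cyclins phosphorylate the retinoblastoma protein and release E2F factors that switch on S phase genes. A cell that enters S phase under such a drug goes on to replicate its DNA, and in G2 and mitosis transcribes the genes of the spindle and of chromosome segregation. In luminal breast cancer cells the estrogen receptor drives entry into this cycle, and trefoil factors, the progesterone receptor and other genes are its well-known targets.

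The cycling cells of both conditions were nearly equal in depth. The median cell held 39100.5 UMIs (unique molecular identifiers, each a captured RNA molecule) in monoculture S, 37724 in coculture S, 36758 in monoculture G2M and 35635 in coculture G2M. Summed UMIs were 6614344, 17080290, 6905894 and 16948642, in the same order. S cells made up 48.1% (42.9 to 53.3, exact binomial interval) of cycling cells in monoculture and 49.7% (46.5 to 53) in coculture, so the division between both phases did not differ beyond counting error. With phases called again at 5000 UMIs per cell the shares were 53.6% (48.9 to 58.4) and 48.8% (45.6 to 52.0). The median S score of S cells was 0.149 in monoculture and 0.203 in coculture, and the median G2M score of G2M cells 0.362 and 0.304. A score of at least 0.1 for the called phase was held by 100 of 176 monoculture and 308 of 458 coculture S cells. The median share of mitochondrial RNA was 17.7% and 15.1% in S, and 18.3% and 15.8% in G2M, higher in monoculture in both phases. Deposited cluster 7 held most G2M cells of both conditions (77.9% and 71.5%). Of monoculture S cells, 41.5% (34.1 to 49.1) lay in cluster 4, against 0.218% (0.00553 to 1.21) of coculture S cells, and 7.95% against 29.3% lay in cluster 3.

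Labels and transgenes were set beside the populations. Every cocultured sensitive cell held an mVenus UMI, since the authors assigned lineage there by transgene, whereas 126 of 176 and 141 of 190 monoculture cells did in S and G2M. The mVenus level was 37.5 and 53.3 CPM (a gene's UMIs divided by all UMIs and scaled to a common total) in monoculture and 58.1 and 75 CPM in coculture, and the part of that rule in the difference was not tested. No cycling sensitive cell of either condition held an mCherry UMI. Cocultured resistant cells likewise held no mVenus UMI, so in coculture this goes with the assignment by transgene and is no check of it. The epithelial markers KRT8, KRT18, KRT19 and GATA3 were abundant in both, at 2499.6 and 2217 CPM for KRT8 in S cells, and 4 of 14 stromal, endothelial and immune markers had no UMI in any of the 4 sums. The 14 together reached 59.9 CPM in monoculture S and 27.8 in coculture S, and 42.1 and 20.7 in G2M. Most of that was the collagen gene COL3A1, at 56.2 and 21.7 CPM in S. No barcode was shared between the cycling cells of both libraries, and 8 were shared between all their annotated cells.

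Most genes had like levels in cells called as cycling in both conditions. Over the 6619 genes tested, whose mean reached 10 CPM in each phase, the median log2 ratio of coculture over monoculture (with 1 CPM added to each level) was -0.06 in S and -0.08 in G2M. At a ratio of at least 0.5 in log2, 240 genes (3.63% of those tested) were higher and 349 (5.27%) lower in coculture S cells, and 219 (3.31%) were higher and 429 (6.48%) lower in G2M cells. In both phases 140 genes (2.12%) were higher and 209 (3.16%) lower, and 0 genes passed the threshold in opposite directions. Of these, 18 were higher and 18 lower by at least 1 in log2 in both phases. Scaling by TMM, which centres the bulk of genes at 0, gave 195 higher and 122 lower in both phases, and 61.5% of such genes were then higher in place of 40.1%, so the balance of directions depends on the scaling. That scaling moved the median ratio of tested genes to 0.00 in S and 0.01 in G2M, and some list medians nearer to 0 than 0.1 change sign with it. Of the 140 higher genes 116 also passed the threshold in G1 cells, and 174 of the 209 lower ones did. With cells limited to a score of at least 0.1 for their phase, 147 genes were higher and 212 lower in both phases. None of the 140 higher and 209 lower genes belonged to the lists of S and G2M genes behind the phase calls (31 and 47 tested). Since those lists set the phases, this is in part fixed by how cells were chosen. In G1 cells at large 338 tested genes (5.11%) were higher and 446 (6.74%) lower. In all sensitive cells, 483 (7.3%) were higher and 486 (7.34%) lower, and with the phases of both conditions weighted alike 191 (2.89%) and 341 (5.15%). Of the 483 higher and 486 lower genes, 182 and 304 still passed with that weighting.

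**Figure D1:**
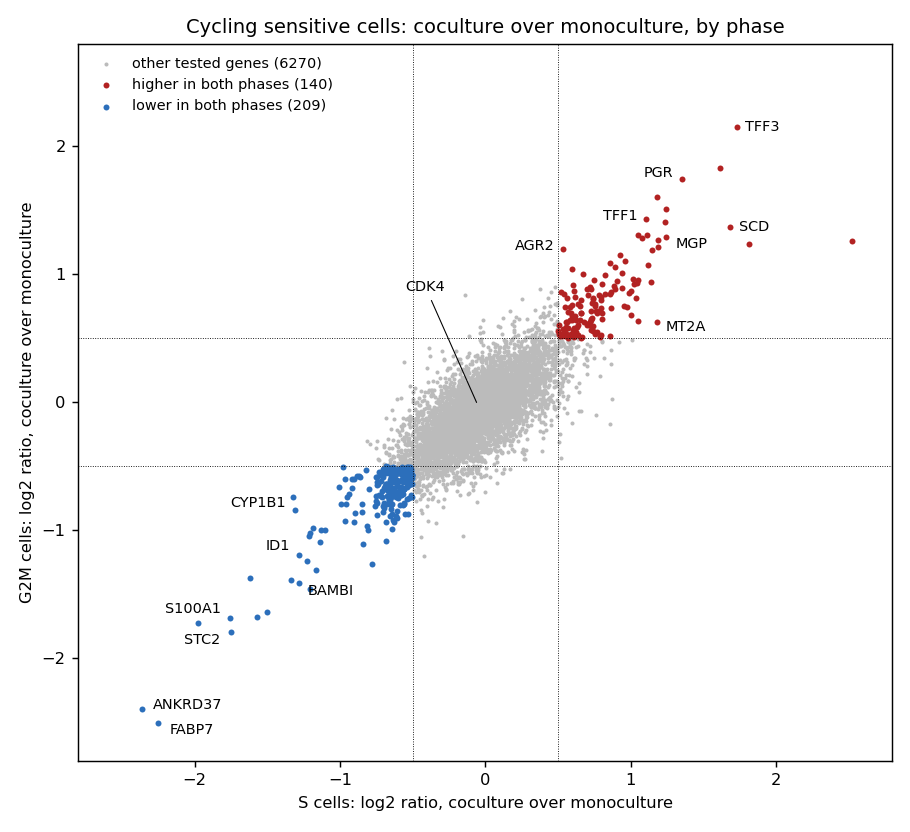
Each point is 1 of the 6619 tested genes, with its log2 ratio of CPM (coculture over monoculture, 1 CPM added) in sensitive S cells on the x axis and in sensitive G2M cells on the y axis, and dotted lines mark 0.5 and -0.5. Genes past the threshold lie along 1 diagonal, from FABP7 and ANKRD37 at the lower left to TFF3 at the upper right, and CDK4 lies near 0 in both phases.

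Genes of the cell cycle machinery had higher medians over all sensitive cells than within a phase. Over all sensitive cells the median log2 ratio was 0.75 for the 31 tested S phase genes, 1.09 for the 47 G2M genes, 0.59 for 36 genes of the replication machinery and 0.92 for 53 genes of the mitotic machinery, against -0.04 over all tested genes. Within S cells the same medians were -0.11, 0.13, -0.04 and -0.00, and within G2M cells -0.15, -0.20, -0.07 and -0.24. Weighting the phases alike gave -0.07, -0.01, 0.04 and 0.02. The replication list had medians of 0.02 in S and 0.01 in G2M under TMM scaling, and so changed sign with the scaling. Since the S and G2M lists set the phase calls, and other cycle genes are transcribed with them, nearness within a phase is in part fixed by how cells were chosen, and all 4 lists are a description only. None of the 36 replication genes and 1 of the 53 mitotic genes, CENPU, was itself on those lists. In G2M cells 11 of 47 G2M genes lay above 0, against 2489 of all 6619 tested genes, and 6 passed the threshold downwards, against 6.48% of all tested genes, CENPA (57.3 CPM in monoculture, 35.3 in coculture), which marks centromeres, and CCNB2 (214 and 145 CPM), a mitotic cyclin, among them. MKI67, the common proliferation marker and itself a gene of the G2M list, stood at 80.3 and 84.8 CPM in S and at 194 and 162 CPM in G2M. Its log2 ratio was 1.47 over all sensitive cells, 0.08 in S and -0.26 in G2M.

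**Figure D2:**
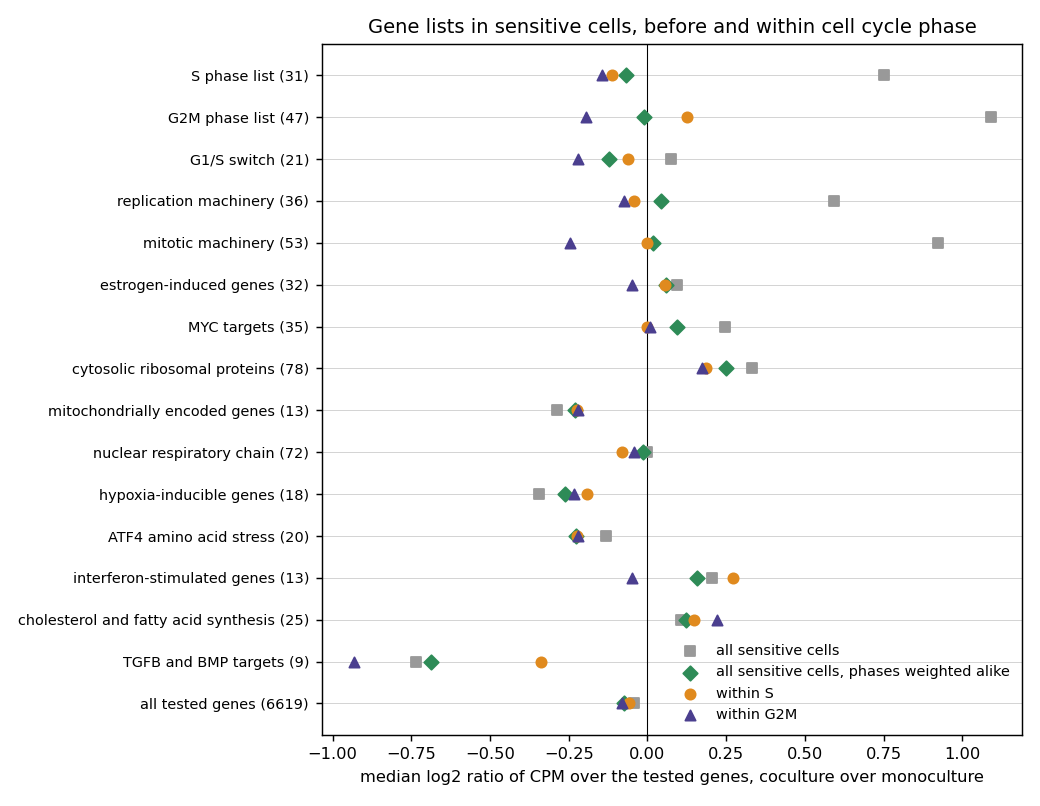
Median log2 ratio of CPM, coculture over monoculture, for gene lists with the number of tested genes in brackets: grey squares are all sensitive cells, green diamonds the same with phases weighted alike, orange circles S cells and purple triangles G2M cells. The S, G2M, replication and mitotic lists lie between 0.59 and 1.09 over all cells and between -0.24 and 0.13 within phases, whereas the TGFB and BMP targets are below 0 in all 4. The hypoxia-inducible, ATF4, mitochondrially encoded and nuclear respiratory lists and all tested genes are below 0 in all 4 as well, but less far.

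CDK4 and most genes of its pathway stayed under the threshold, and CDK6 was too low to compare. CDK4 was at 176 CPM (166 to 186) in monoculture and 169.7 CPM (164 to 176) in coculture S cells, and at 152 CPM (143 to 162) and 149.6 CPM (144 to 156) in G2M cells, so the intervals overlapped in both phases. CDK6 had 0 UMIs in monoculture, which allows up to 0.454 CPM in S and 0.434 in G2M, and 1 and 2 UMIs in coculture. CCND1, the D-type cyclin partner of CDK4, was at 1790.0 and 1564 CPM in S and at 1479.8 and 1441 CPM in G2M. CCNE1, the cyclin E that works with CDK2, had 29.9 and 24.3 CPM in S, with a log2 ratio of -0.29 (-0.55 to -0.05), and CCNE2 had 34.8 and 35.2 CPM. Nearness of cycle genes such as CCNE2 within a phase is in part fixed by how cells were chosen. RB1, the retinoblastoma gene, had log2 ratios of -0.01 in S and 0.18 in G2M, and E2F1 of -0.24 and -0.26. None of these genes passed the threshold in either phase, though CCNE1 reached -0.60 in S with cells limited to a score of at least 0.1. The CDK inhibitor CDKN1A (p21) was at 14.4 and 13.8 CPM in S and at 20.1 and 11.3 CPM in G2M, lower in coculture by the threshold in G2M alone. CDKN1B (p27) had ratios of 0.11 and -0.22. Of 21 tested genes of the G1/S switch 0 were higher and 1 was lower in both phases, CCNH (25.7 and 15.4 CPM in S, 33.2 and 17.8 in G2M), the cyclin subunit of the kinase that activates CDKs. The shares over all tested genes were 2.12% higher and 3.16% lower. CKS1B, 1 of the 21, was itself on the lists behind the phase calls.

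Single replication and repair genes passed the threshold, beside 2.12% of all tested genes higher in both phases. RFC3, of the clamp loader, was at 55.8 and 82.6 CPM in S and 40.4 and 58.8 CPM in G2M, and POLE3, a small subunit of DNA polymerase epsilon, at 71.1 and 108 and at 75.2 and 111 CPM. Both were the 2 of 36 replication genes higher in both phases. They were also higher in cocultured than in monocultured resistant cells, with log2 ratios of 0.62 and 0.67 for RFC3 and 0.66 and 0.64 for POLE3. RBBP8, which starts the resection of broken DNA ends, was the 1 of 17 tested recombination genes higher in both, at 45.7 and 89.2 CPM in S and 41.6 and 70.6 CPM in G2M. Its ratio in resistant cells was 0.02 and 0.07. PCNA, the sliding clamp and an S list gene, passed the threshold downwards in G2M alone, at 203 and 144 CPM in S and 104 and 68.1 CPM in G2M. With S cells limited to a score of at least 0.1, its S ratio was -0.62 and passed too.

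Histone transcripts went both ways. HIST1H4C, a replication-dependent histone H4 gene on chromosome 6, was at 867 CPM (845 to 890.1) in monoculture and 1922 CPM (1902 to 1943) in coculture S cells, and at 174 and 397 CPM in G2M cells. The log2 ratios were 1.15 and 1.19, against 2.75 over all sensitive cells. With cells limited to a score of at least 0.1 for their phase, they were 0.93 in S and 1.24 in G2M. Of 9 tested histone genes 2 were higher in both phases, HIST1H4C and HIST2H2AC, and 6 were lower, HIST1H1C, HIST1H2AC, HIST1H2BC, HIST1H2BJ, HIST1H2BK and HIST1H4H. The shares over all tested genes were 2.12% higher and 3.16% lower. HIST1H4H was at 46.1 and 22.4 CPM in S and 29.3 and 18.1 CPM in G2M. Only 28 of the 59 listed histone genes were matched, histone genes have near-identical copies that share reads, and the replication-dependent ones mostly lack the poly(A) tail that this chemistry primes on, so these values are uncertain.

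Among estrogen-induced genes a few secreted and receptor genes were far higher in cocultured cycling cells while the list's middle was not. TFF3, a secreted trefoil peptide, was at 91.8 CPM (84.6 to 99.4) in monoculture and 306 CPM (298 to 315) in coculture S cells, and at 80.9 CPM (74.4 to 87.9) and 363 CPM (354 to 372) in G2M cells. Its log2 ratios were 1.73 (1.62 to 1.86) and 2.15 (2.04 to 2.29), and the mean of both was the highest of the 140 genes higher in both phases. TFF1, its neighbour on chromosome 21 (GRCh37, TFF3 at 43731777 to 43735519 and TFF1 at 43782391 to 43786644, both on the minus strand), was at 1989 and 4283 CPM in S and 1793 and 4831 CPM in G2M, ratios of 1.11 and 1.43. With cells limited to a score of at least 0.1 for their phase, the ratios were 0.87 and 1.43 for TFF1 and 1.62 and 1.91 for TFF3. In cocultured resistant cells TFF1 stood at 5479 and 5230.4 CPM and TFF3 at 328 and 299 CPM, so cocultured sensitive cells lay nearer to them than monocultured ones did.

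PGR, the progesterone receptor, was at 13.5 CPM (10.8 to 16.6) and 35.8 CPM (33 to 38.8) in S and at 9.70 CPM (7.52 to 12.3) and 34.8 CPM (32.1 to 37.7) in G2M. AGR2, a protein disulfide isomerase of the endoplasmic reticulum, was at 212 and 308 CPM in S and at 164 and 377 CPM in G2M. Both were higher in cocultured sensitive cells than in either resistant population, which had 21.3 and 21.5 CPM of PGR and 121 and 179 CPM of AGR2 in S. With S cells limited to a score of at least 0.1, the S ratio of AGR2 was 0.37 in place of 0.53. Of 32 tested estrogen-induced genes 5 were higher in both phases, the 4 above and CELSR2, and 2 were lower, STC2 and the small heat shock gene HSPB8. The shares over all tested genes were 2.12% higher and 3.16% lower. The list's median was 0.06 in S and -0.05 in G2M. GREB1, a cofactor of the receptor, had ratios of 0.34 and 0.10, or 0.55 in S with a score of at least 0.1. The receptor gene ESR1 was at 15.7 CPM (12.8 to 19.1) and 20.4 CPM (18.3 to 22.7) in S and at 17.7 CPM (14.7 to 21.1) and 21.1 CPM (19 to 23.4) in G2M. Its log2 ratios were 0.36 (0.06 to 0.71) and 0.25 (-0.04 to 0.57), under the threshold in both phases, and 0.63 in S with at least 2 transgene UMIs per cell.

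**Figure D3:**
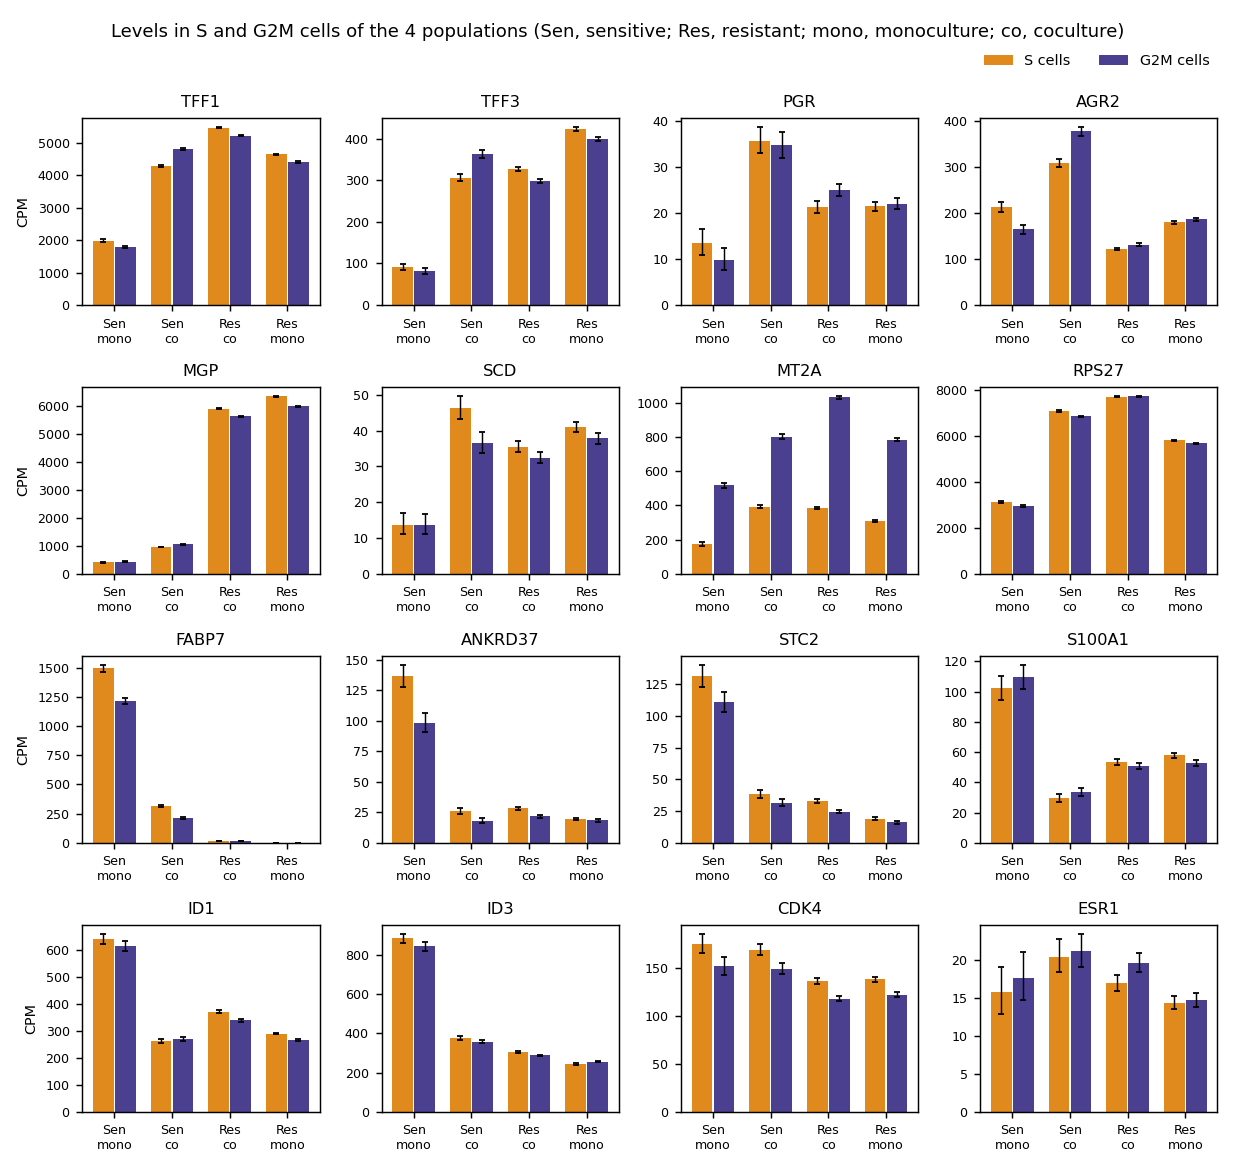
Bars are CPM of 16 genes in S cells (orange) and G2M cells (purple) of sensitive cells in monoculture and coculture and resistant cells in coculture and monoculture, each axis starting at 0, with 95% Poisson intervals of counting error. PGR and AGR2 are highest in sensitive coculture (35.8 CPM of PGR in S), MGP is far higher in both resistant populations, and FABP7, ANKRD37, STC2, S100A1, ID1 and ID3 are highest in sensitive monoculture in both phases.

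FABP7 and ANKRD37 had the lowest ratios of the named genes, ANKRD37 the lower of them in S and FABP7 in G2M. FABP7 is the brain-type fatty acid-binding protein (GRCh37, chromosome 6, 123100861 to 123105219, plus strand). It was at 1493 CPM (1464 to 1523) in monoculture and 313 CPM (304 to 321) in coculture S cells and at 1210.4 CPM (1185 to 1237) and 212 CPM (205 to 219) in G2M cells, log2 ratios of -2.25 and -2.51. Resistant cells had far less, 13.9 CPM in cocultured and 0.547 in monocultured S cells. S100A1, a calcium-binding protein, was at 102 and 29.5 CPM in S and 109.6 and 33.3 CPM in G2M, and at 53.3 and 50.9 CPM in cocultured resistant cells. STC2, the secreted glycoprotein stanniocalcin 2, which is on both the estrogen and the amino acid stress list, was at 131 and 38.3 CPM in S and at 111 and 31.4 CPM in G2M. It stood at 33.1 and 24.7 CPM in cocultured resistant cells. Cocultured sensitive cells thus lay between monoculture and resistant cells in FABP7 and STC2, and below both in S100A1. LXN, an inhibitor of carboxypeptidases, ALDH2, the mitochondrial aldehyde dehydrogenase, CYP1B1, a steroid-oxidising cytochrome P450, SLC25A4, an ADP/ATP carrier, and PLK2, a polo-like kinase, were also among the 12 lowest, with S ratios of -1.21, -1.14, -1.31, -0.96 and -0.81 and G2M ratios of -1.02, -1.09, -0.84, -0.93 and -0.99.

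ANKRD37, an ankyrin-repeat gene known as a target of hypoxia-inducible factors, was at 137 CPM (128 to 146) and 25.8 CPM (23.4 to 28.3) in S and at 98.5 CPM (91.2 to 106) and 17.9 CPM (16 to 20.1) in G2M. Its ratios of -2.36 and -2.39 were far from those of the other hypoxia-inducible genes. Of 18 tested, it was the 1 lower in both phases and 0 were higher, beside 3.16% lower and 2.12% higher of all tested genes. The medians of the 18 were -0.19 and -0.23 against -0.06 and -0.08 over all tested genes. ERO1A, an oxidoreductase of the endoplasmic reticulum, had ratios of -0.34 and -0.49, and P4HA2, a collagen prolyl hydroxylase, of -0.42 and -0.40. The promoter of ANKRD37 (RefSeq, GRCh38.p14, chr4:185396591-185396890, plus strand, 250 bases before to 50 after the start) is shown because this gene stands apart from its list. Capitals mark ACGTG, the core of the hypoxia response element, on either strand, 3 matches of which 2 overlap in a palindrome.
ANKRD37: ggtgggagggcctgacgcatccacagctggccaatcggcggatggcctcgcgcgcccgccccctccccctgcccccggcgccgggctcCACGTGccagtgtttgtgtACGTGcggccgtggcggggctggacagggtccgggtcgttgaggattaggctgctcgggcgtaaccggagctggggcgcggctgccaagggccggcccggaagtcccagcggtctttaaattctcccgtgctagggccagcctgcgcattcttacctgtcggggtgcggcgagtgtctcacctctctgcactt
Of 35116 promoter windows of this length, 21.4% hold ACGTG and 1.98% hold at least 3 matches. A match is only a description of the letters.

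Targets of TGFB and BMP signals, which act through SMAD factors, held several lower members. ID1, an inhibitor of DNA binding that pairs with helix-loop-helix factors and a classical BMP target, was at 641 CPM (622 to 661) and 263 CPM (256 to 271) in S and at 616 CPM (598 to 635) and 269 CPM (261 to 277) in G2M. ID3 was at 886 and 377 CPM in S and 844 and 358 CPM in G2M, and ID2 at 88.3 and 46.8 and at 95.6 and 49.6 CPM. BAMBI, a decoy receptor that dampens these signals, was at 27.8 and 10.8 CPM in S and 58.9 and 21.6 CPM in G2M. These were the 4 of 9 tested genes lower in both phases, with 0 higher, beside 3.16% lower and 2.12% higher of all tested genes. The list's median was -0.34 in S and -0.93 in G2M, against -0.06 and -0.08 over all tested genes. Over the alternatives the list's median lay between -1.07 and -0.24 in S and between -1.06 and -0.58 in G2M. It was lowest with genes of at least 50 CPM alone. In resistant cells, coculture over monoculture, the ratios were 0.35 and 0.35 for ID1 and 0.33 and 0.17 for ID3.

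Few members of the other signalling and stress lists passed the threshold, and these counts stand beside the 2.12% of all tested genes higher and 3.16% lower in both phases. Of 20 tested ATF4 targets 4 were lower in both phases and 0 higher, STC2, HERPUD1, PHGDH, which opens serine synthesis, at 49.6 and 30.4 CPM in S and 61.8 and 31.8 in G2M, and the transcription factor CEBPB, at 32.8 and 20.1 and at 40.1 and 23.7 CPM. None of 20 genes of the unfolded protein response and none of 13 of glycolysis passed in both phases. JUNB, an AP-1 factor, was the 1 of 7 tested EGFR and MAPK genes that did, at 135 and 83.7 CPM in S and 108 and 68.7 CPM in G2M. PLK2 was the 1 of 9 p53 targets, and BIK, a pro-apoptotic member of the BCL2 family, the 1 of 10 apoptosis regulators, both lower. MYC targets had 2 of 35 higher and 0 lower, WDR43 (0.72 and 0.64) and PA2G4 (0.59 and 0.54), with medians of -0.00 and 0.01. Of 19 luminal regulators PGR alone passed in both phases, and of 9 epithelial markers 0 did.

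Of 3 tested metallothionein genes, which encode small proteins that bind zinc and copper, 2 were higher in both phases. The share over all tested genes was 2.12%. MT2A was at 173 CPM (163 to 183) and 393 CPM (384 to 403) in S and at 516 CPM (499.6 to 534) and 801 CPM (787 to 814) in G2M. MT1X was at 91.3 and 188 CPM in S and 91.7 and 162 CPM in G2M. MT1F, the remaining tested member of 11 listed, had ratios of 0.87 and 0.02. Metallothioneins are near-identical copies whose reads may be split uncertainly. Their promoters are shown because both genes passed the threshold in both phases (RefSeq, GRCh38.p14, plus strand, chr16:56608334-56608633 for MT2A and chr16:56682220-56682519 for MT1X). Capitals mark TGCACNC or TGCGCNC, the core of the metal response element, on either strand, with overlapping matches each counted.
MT2A: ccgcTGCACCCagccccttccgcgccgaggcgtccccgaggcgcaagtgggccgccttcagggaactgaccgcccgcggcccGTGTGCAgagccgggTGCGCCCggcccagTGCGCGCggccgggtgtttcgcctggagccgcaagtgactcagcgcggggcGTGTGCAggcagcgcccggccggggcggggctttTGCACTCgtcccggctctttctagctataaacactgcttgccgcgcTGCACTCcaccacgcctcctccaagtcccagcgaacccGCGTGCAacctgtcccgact
MT1X: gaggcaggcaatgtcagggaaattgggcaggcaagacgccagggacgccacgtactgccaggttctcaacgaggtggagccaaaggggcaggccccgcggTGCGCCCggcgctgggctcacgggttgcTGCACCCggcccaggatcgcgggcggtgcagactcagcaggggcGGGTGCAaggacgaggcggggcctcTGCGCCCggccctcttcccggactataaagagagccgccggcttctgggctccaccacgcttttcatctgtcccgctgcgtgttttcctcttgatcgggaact
These windows hold 8 and 4 matches, and 29.6% of all windows hold at least 1 and 0.601% at least 4.

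Lipid synthesis and interferon genes had a few higher members, beside 2.12% of all tested genes higher and 3.16% lower in both phases. SCD, the desaturase that makes monounsaturated fatty acids, was at 13.8 CPM (11.1 to 16.9) and 46.4 CPM (43.2 to 49.7) in S and at 13.6 CPM (11 to 16.7) and 36.7 CPM (33.9 to 39.7) in G2M. FADS1, a desaturase of polyunsaturated fatty acids, had ratios of 0.89 and 1.06 and INSIG1, which holds back the sterol-sensing SREBP pathway, of 0.59 and 0.70. All 3 passed the threshold upwards in both phases, and of 25 tested lipid genes SC5D, of the late sterol pathway, was the 1 lower in both. Of 13 tested interferon-stimulated genes 3 were higher and 0 lower in both, IFI6 (15.6 and 34.8 CPM in S), ISG15 (41.4 and 70.3 CPM) and IFITM2 (227 and 339 CPM), while the list's median was 0.27 in S and -0.05 in G2M. With S cells limited to a score of at least 0.1, the S ratios were 2.54 for IFI6 and 1.61 for ISG15 in place of 1.11 and 0.75. In resistant cells the ratio of ISG15 had the opposite sign, -0.65 in S and -0.57 in G2M.

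Several very abundant transcripts of translation and respiration were higher in cocultured sensitive cells, and some of them in cocultured resistant cells too. RPS27, a small-subunit ribosomal protein, was at 3107 and 7082 CPM in sensitive S cells and at 2951 and 6850.0 CPM in G2M cells, and at 5816 CPM in monocultured and 7702 in cocultured resistant S cells. ATP5ME, a subunit of ATP synthase, was at 495 and 1129 CPM in sensitive and 713 and 1094 CPM in resistant S cells, and RPL39 at 2181 and 4077 and at 2746 and 4429.5 CPM. RPL39 and ATP5ME passed the threshold in both lineages, and RPS27 in sensitive cells only, with resistant ratios of 0.41 and 0.44. The mitochondrially encoded complex I gene MT-ND3 was at 14280.3 and 23663 CPM in sensitive and 16400.4 and 26108 CPM in resistant S cells. Beside 2.12% of all tested genes higher and 3.16% lower in both phases, of 78 ribosomal protein genes 12 were higher and 0 lower in both phases, with medians of 0.19 and 0.17. Of 13 mitochondrially encoded genes 4 were higher and 1 lower, with medians of -0.22 in both phases, and of 72 nuclear genes of the respiratory chain 5 were higher and 2 lower. MIF, a secreted cytokine on none of the lists, was among the 12 highest genes of at least 50 CPM, at 582 and 1266 CPM in S and 594 and 1251 CPM in G2M. COX6C, a subunit of cytochrome c oxidase, was higher in sensitive cells at 3705 and 6053 CPM in S, with ratios of 0.07 and 0.18 in resistant cells.

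Calls shared with the resistant lineage were then counted. In resistant cells 100 tested genes (1.51%) were higher and 10 (0.151%) lower in coculture in both phases. The higher genes of sensitive and resistant cells had 37 in common, 26.4% of the 140 and 37.0% of the 100, among them NMT1, an N-myristoyltransferase, AP2B1, of the clathrin adaptor, RFC3, POLE3, RPL39, ATP5ME, NDUFB1 and MT-ND3. The lower genes had 1 in common, ALDH2. Of the 140 higher genes 3 passed the threshold downwards in resistant coculture in both phases, AGR2, ISG15 and MAB21L4. Of the 209 lower genes 10 passed it upwards there, FABP7, STC2 and COL3A1 among them, but some passed the filter of 10 CPM only through sensitive cells and were near 0 in resistant ones (FABP7 at 0.547 CPM in monocultured and 13.9 in cocultured resistant S cells, COL3A1 at 0.0972 and 1.89). The part of sensitive-cell RNA in those values was not tested. Both comparisons draw on the same coculture library and on different monoculture libraries, so a difference between libraries and a response of both lineages cannot be told apart for the 37. TFF3 (-0.37 and -0.42 in resistant cells), PGR (-0.01 and 0.18) and SCD (-0.20 and -0.22) were not among the 37. For genes called in sensitive cells alone, anything peculiar to the sensitive monoculture library and a response to coculture cannot be told apart either. By summed exon length, 4.17% of tested genes in the shortest sixth and 1.09% in the longest were higher in both phases, and 5.80% and 1.81% were lower. By chromosome, median ratios of tested nuclear genes lay between -0.10 and -0.02 in S.

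The transgenes also gave an estimate of how much resistant-cell RNA coculture barcodes with mVenus held. In the 1263 coculture barcodes with at least 2 mVenus UMIs that passed the quality limits, doublets included, mCherry stood at 7.57% of its level in resistant monoculture (186 UMIs). The annotated cocultured sensitive cells held 0 mCherry UMIs, so these UMIs came from other barcodes. Whether that share holds for the annotated cells was not tested. From the 2 genes far higher in resistant cells, BRINP3 and MGP, the share was 10.1% in S and 12.03% in G2M. MGP, matrix Gla protein, an inhibitor of calcification that resistant cells express strongly, was at 407 CPM (392 to 423) and 963 CPM (948 to 978) in S and at 432 CPM (417 to 448) and 1058 CPM (1043 to 1074) in G2M, beside 5909.6 and 5634 CPM in cocultured resistant cells. Removing resistant-cell RNA at the mCherry share brought its ratio from 1.24 to 0.44 in S and from 1.29 to 0.60 in G2M, and limiting S cells to scores of at least 0.1 brought it to 0.78 in S. The same removal left TFF1 at 1.07 in S and FABP7 at -2.14. At the share of the 2 genes, an alternative chosen after seeing the data, the MGP ratios were -0.032 and -0.17, near 0 by construction since MGP nearly alone sets that share. A difference in MGP itself and resistant-cell RNA therefore cannot be told apart. TFF1 then stood at 1.06 in S, TFF3 at 1.70, PGR at 1.40 and FABP7 at -2.11.

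The share of cells that held each RNA was also counted. With each cell thinned to 9000 UMIs, a depth that all annotated cells reached, TFF3 was found in 43.2% of monoculture and 71.8% of coculture S cells and in 35.8% and 74.7% of G2M cells (without thinning 71.6% and 93.9% in S, 75.8% and 95.2% in G2M). PGR was found in 10.2% (6.17 to 15.7) and 29.9% (25.8 to 34.3) of S cells and in 6.32% and 25.9% of G2M cells. Cocultured resistant S cells held TFF3 in 73.8% and PGR in 15.6%, and the part of their RNA in the shares of the sensitive cells was not tested. FABP7 was found in 71.6% (64.3 to 78.1) and 50.9% (46.2 to 55.5) of S cells and in 74.7% and 42.8% of G2M cells, and in 0.509% of monocultured and 6.70% of cocultured resistant S cells. Without thinning the median S cell held 32 FABP7 UMIs in monoculture and 2 in coculture. ANKRD37 was found in 45.5% (37.9 to 53.1) and 17.0% (13.7 to 20.8). Cocultured resistant S cells held it in 17.3%, a share like that of the sensitive cells beside them. MGP was found in 50.6% of monoculture and 94.1% of coculture S cells, but the 99.0% of cocultured resistant S cells with it and their high level make this share one that resistant-cell RNA can set, so no difference is read from it.

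**Figure D4:**
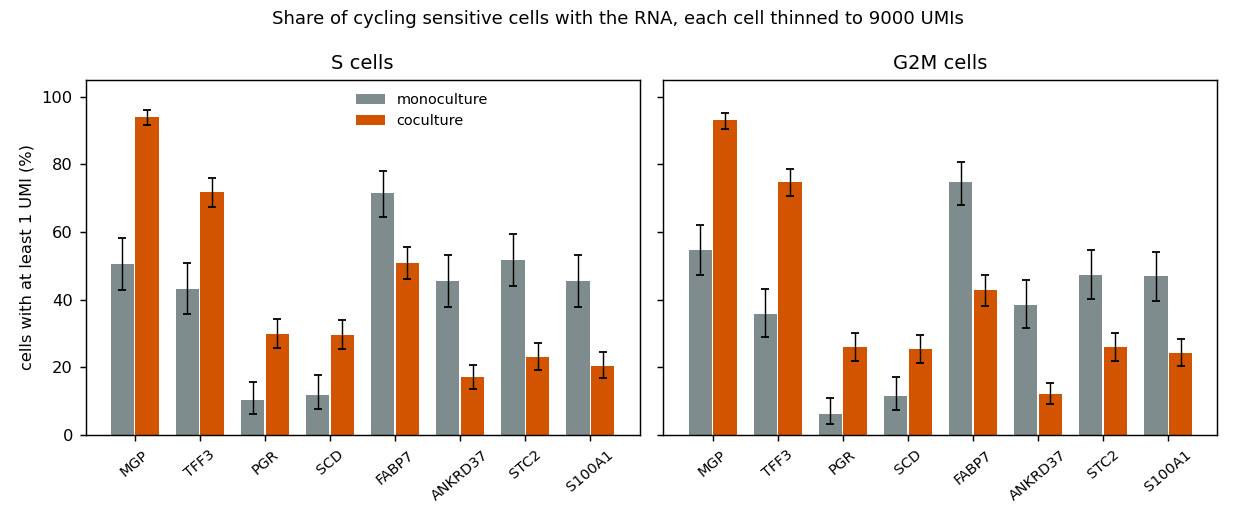
Bars are the share of sensitive cells with at least 1 UMI of each gene, after thinning every cell to 9000 UMIs, in S cells (left) and G2M cells (right) of monoculture (grey) and coculture (orange), with exact 95% binomial intervals. TFF3, PGR and SCD have higher bars in coculture, and FABP7, ANKRD37, STC2 and S100A1 lower ones, in both phases with intervals that do not overlap. The MGP bars can be set by resistant-cell RNA, and its part in the bars of TFF3, PGR and SCD was not tested.

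Some ratios were apart between the phases. Among genes of at least 50 CPM, MT2A, TMPO, EZH2, H1FX and CENPM had the largest excess of the S over the G2M ratio. EZH2, the histone H3 methyltransferase, was at 74.5 and 104 CPM in S and 95.7 and 94 CPM in G2M, and TMPO, a protein of the nuclear envelope whose gene is on the G2M list behind the phase calls and so is described only, at 108 and 132 and at 242 and 198 CPM. AGR2, COA4, BTG1, CYP1B1 and SH3BGRL had the largest excess of the G2M ratio. Below that level, and chosen after its values were seen, the imprinted gene PEG10 had the highest S ratio of all tested genes, 2.52, from 8.62 CPM in monoculture and 54.2 in coculture, with 37.2 and 90.6 CPM in G2M. PEG10 was also among the 37 genes higher in coculture in both lineages, for which a difference between libraries cannot be told apart.

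Placed on the line from sensitive to resistant monoculture, with 0 and 1 at the ends, cocultured sensitive cells lay at 0.372 (0.367 to 0.377) in S over 2361 genes of at least 50 CPM and at 0.390 (0.384 to 0.395) in G2M over 2453 genes. Cocultured resistant cells lay at 0.847 and 0.859. The root mean square log2 difference from sensitive monoculture was 0.314 in S and 0.315 in G2M, of which 28.6% and 30.4% (as squares) lay along the line. Both differences use the same sensitive monoculture library, so anything peculiar to it raises the position, and no value for no change can be given. Removing resistant-cell RNA gave positions of 0.338 and 0.348 at the mCherry share, and 0.324 and 0.319 at the share of the 2 genes. G1 cells of the same population lay at 0.439.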

How the data were processed

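Members and gene lists were chosen with earlier results of these data known. Per the labels, the authors counted UMIs with Cell Ranger 3.0.2 on GRCh37, and the deposited tables held raw counts per gene and barcode for 3 libraries. The authors' cell annotation gave the population, Seurat phase scores, the phase, the cluster and the percent of mitochondrial UMIs, after limits of 3000 to 7000 genes, 2000 to 60000 UMIs and at most 30% mitochondrial UMIs. Groups came from the labels for the library and from the deposited annotation for lineage and phase, and the authors had removed doublets predicted by scrublet at a threshold of 0.25. The study also states a minimum of 2 transgene UMIs per cell, which part of the annotated cells do not reach.

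UMIs were summed per population and phase with Python 3.11.15 (numpy 2.4.6, pandas 2.3.3, scipy 1.17.1) and divided by the total to give CPM, with exact Poisson intervals. The log2 ratio added 1 CPM to each level, and its interval, the exact conditional binomial one, added none. Genes were tested at a mean of at least 10 CPM in both phases, without transgenes, and called at 0.5 in log2. Shares of cells had exact (Clopper-Pearson) intervals, and PCR duplicates were collapsed by UMI. The limit for a count of 0 was 3 counts. The position between both monocultures was the projection of the log2 difference on the line between them over genes of at least 50 CPM in that phase. The calculation was tested on simulated counts.

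Named genes were the 12 highest and the 12 lowest of at least 50 CPM called in both phases, the 5 with the largest excess of either phase, the 3 largest of each list, and 19 fixed genes. Alternatives were 0.1 or 10 CPM added, TMM scaling (edgeR 4.0.16, R 4.3.3, with no test), totals without mitochondrial genes, the mean of each cell's CPM, at least 2 transgene UMIs, no cells with a score above 0.25 in a new scrublet run (scanpy 1.11.5), a phase score of at least 0.1, phases called at 5000 UMIs, minima of 1 or 50 CPM, and removal of resistant-cell RNA, at the share from mCherry or, added after seeing the data, from 2 genes. Levels are per UMI of a 3' end and were not divided by length. Promoter windows came from RefSeq (GRCh38.p14), where 77 of 106 named genes matched, and gene positions from GENCODE on GRCh37. Columns of the authors' comparisons were not used.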

Additional observations from a re-analysis of the deposited data

How the results depend on the processing

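No paired analysis was possible because each condition was 1 library, and for the same reason no library could be left out. Of 124 log2 ratios of named genes past 0.5, 100 stayed past it under every alternative run. Named genes were in part chosen for large ratios in these same data, so this count does not describe the calls over all genes. The ratios of MGP reversed, to -0.032 in S and -0.17 in G2M, with resistant-cell RNA removed at the share of 2 genes, by construction. Ratios and list medians nearer to 0 than 0.5 changed sign in places, and TMM scaling turned the balance of genes called in both phases to 195 higher and 122 lower. Adding 10 CPM to each level gave 138 genes higher and 152 lower in S, 119 and 179 in G2M, and 94 and 95 in both phases. The positions were then 0.403 in S and 0.423 in G2M. Adding 0.1 CPM gave positions of 0.358 and 0.373. TMM scaling gave 315 genes higher and 234 lower in S, 335 and 222 in G2M, and positions of 0.362 and 0.374. Totals without mitochondrial genes gave a position of 0.378 in S, and the mean of each cell's CPM gave 0.383 and 0.396. At least 2 transgene UMIs per cell gave 0.383 in S, a phase score of at least 0.1 gave 0.351 and 0.379, and phases called on thinned cells gave 0.381 in S. The transgene minimum also gave 348 genes higher and 456 lower in S, 276 and 478 in G2M, and 148 and 222 in both phases. Removing resistant-cell RNA gave positions of 0.338 and 0.348 at the mCherry share and 0.324 and 0.319 at the share of 2 genes, an alternative chosen after seeing the data, and genes of at least 10 CPM gave 0.364 and 0.380. A minimum of 1 CPM gave 606 genes higher and 744 lower in S, 563 and 863 in G2M, and 275 and 368 in both phases. A minimum of 50 CPM gave 100 and 124 in S, 86 and 140 in G2M, and 73 and 86 in both phases. The minima change how many genes are tested and the added CPM shrinks or widens ratios of low genes by construction. For the other settings the cause was not tested. The position in S lay between 0.324 and 0.403 over all settings and that in G2M between 0.319 and 0.423. Depth limits mainly the monoculture, whose cells numbered 176 and 190 against 458 and 463.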
